A study of Homo sapiens with 6 samples.

Results

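The genes described here encode cytokines, chemokines and their receptors in K562, a human line established from a leukemia and known for its erythroid features. They were chosen by name, as symbols that begin with CCL, CXCL, CCR, CXCR or IL and a digit, or with TNFSF or TNFRSF. The name pattern matched 91 symbols, of which IL6R, IL6ST, the pseudogene IL9RP3 and the antisense genes IL10RB-AS1 and IL21-AS1 were left out. This gave 86 genes of the 17066 symbols in the 3 deposited tables. Of these, 41 belong to the ligand side, with the antagonist IL1RN and the binding protein IL18BP counted there, and 45 encode receptors.

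RNA-seq was carried out on 6 samples, 2 biological replicates each of 3 K562 cell lines made with a PiggyBac transposon. CTR cells carried the empty vector, CEBPA cells carried Tet-inducible wild type C/EBPα and P30 cells carried Tet-inducible C/EBPα-p30, the shorter isoform that lacks part of the transactivation domain. All 3 lines received 200 ng/ml doxycycline over 48 h. Cells kept without the drug were not analysed here. Parental K562 cells are described in the study as lacking both isoforms, and the transgenes enter cells of a leukemia line and not normal myeloid progenitors. Whether each line is 1 clone is not given in the sources used here, so that a difference between lines and an effect of the induced protein cannot be told apart. The row of the CEBPA gene itself was not analysed here.

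Each value is the FPKM (fragments mapped to a gene, scaled for transcript length and for the mapped fragments of the library) of a gene in a group, and the deposited files give 1 pooled value for both replicates. These values carry no spread between replicates and no depth, no test was run on them, and every difference below is a description of 3 pooled values. A change is the difference of log2(FPKM + 1) between 2 groups, which understates the change of genes near 0. It is called 2-fold where it reaches 1 in either direction, among genes above 1 FPKM in either group of the pair. Where 3 levels follow each other without group names, they stand in the order CTR, P30, CEBPA, and a change given alone in the account of the gene families is that between CEBPA and CTR. Since these are bulk samples, fewer cells of a type and less RNA per cell cannot be told apart.

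Cytokines are small secreted or membrane-bound proteins through which blood and tissue cells control each other's growth, survival and activation. Chemokines are the branch that directs cell migration through G protein-coupled receptors, and neutrophils are drawn to inflamed tissue by CXC chemokines such as IL8. Interleukins signal mostly through JAK kinases and STAT factors or, in the IL-1 family, through MYD88 and NF-kB. TNF family ligands signal through receptors that recruit TRAF adaptors or, for the death receptors, caspases. C/EBPα is a leucine zipper transcription factor required for granulocyte formation, and C/EBP proteins and NF-kB are textbook regulators of many inflammatory cytokine genes.

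Cell type markers differed in level between the groups. The summed FPKM of 7 erythroid markers was 1802 in CTR, 1185 in P30 and 595 in CEBPA, and all 7 were at least 2-fold lower in CEBPA than in CTR. The sum of 6 granulocyte markers was 7.11, 42.2 and 8429, of which S100A8 gave 3731 FPKM and S100A9 gave 4623 in CEBPA. Of these 6, 5 were at least 2-fold higher in CEBPA than in CTR, 4 of the 5 compared were at least 2-fold higher in P30 than in CTR, and ITGAM, at 2.59, 14.3 and 2.43, was highest in P30. The 4 monocyte markers summed to 505, 582 and 438, nearly all of it CD68 (505, 580 and 430), while CD14 was at 0.215, 0.228 and 1.10, FCGR1A at 0.129, 0.944 and 4.83 and CSF1R at 0.111, 1.54 and 1.79, so that 2 of the 4 were at least 2-fold higher in CEBPA than in CTR and none lower. The 2 T cell markers with a value (CD3D and CD3E) summed to 7.42, 6.89 and 2.66, the 2 B cell markers to 7.98, 8.001 and 1.80, the 2 NK cell markers to 0.509, 1.74 and 3.74, and the 4 fibroblast markers to 3.60, 4.70 and 3.89. The only one of these markers at 0 was the NK cell gene GNLY in P30. The part of these shifts in the results below was not tested.

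More ligand genes exceeded 1 FPKM in CEBPA cells than in CTR or P30 cells. Of the 41 ligand genes, 12 exceeded 1 FPKM in CTR cells, 12 in P30 cells and 29 in CEBPA cells, and their median level was 0.384, 0.398 and 2.40 FPKM. Receptor genes were present in all 3 groups: 27 of 45 exceeded 1 FPKM in CTR cells, 27 in P30 cells and 36 in CEBPA cells, with medians of 1.77, 1.46 and 3.30 FPKM. Of the 65 members over 1 FPKM in CEBPA, 26 (40%) were over 1 FPKM only there, against 10.3% of all 13078 such symbols. From a list of 182 cytokine and receptor symbols, 96 had no row, so that 41 and 45 count listed genes only. Some of these may be listed only through their CEBPA value. The highest ligand level was 21.3 FPKM in CTR (IL18), 20.4 FPKM in P30 (IL18) and 84.4 FPKM in CEBPA (CXCL10). The highest receptor level was 23.03 FPKM in CTR (TNFRSF1B), 26.7 FPKM in P30 (TNFRSF1A) and 46.8 FPKM in CEBPA (IL13RA1).

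Between CEBPA and CTR, 67 of the 86 members passed the level filter. Of these, 30 (44.8%) were at least 2-fold higher in CEBPA, against 14.0% of all 13673 genes compared. A further 5 (7.46%) were at least 2-fold lower, against 6.92%. Ligands and receptors differed in these counts, with 18 of 29 ligands higher and 1 lower, and 12 of 38 receptors higher and 4 lower. The median change was 1.51 for the ligands and 0.31 for the receptors, beside -0.01 for all genes.

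Many members passed the filter through CEBPA alone, and such genes had to be higher there. Among the 28 members at or below 1 FPKM in CTR and over 1 in CEBPA, 18 (64.3%) were at least 2-fold higher, which is near the 63.2% of all 1536 such genes. Among the 39 members over 1 FPKM in CTR, 12 (30.8%) were at least 2-fold higher, against 7.83% of 12137 genes, and 5 (12.8%) at least 2-fold lower, against 7.79%. With this filter, 6 of 12 ligands and 6 of 27 receptors were higher, and the median change was 0.77 for ligands and -0.13 for receptors, beside -0.11 for all genes. By the median, the receptors thus lay near all genes and the ligands above them. By the counts, the receptors lay above all genes in both directions, with 22.2% higher and 14.8% lower, against 7.83% and 7.79%.

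**Figure D1:**
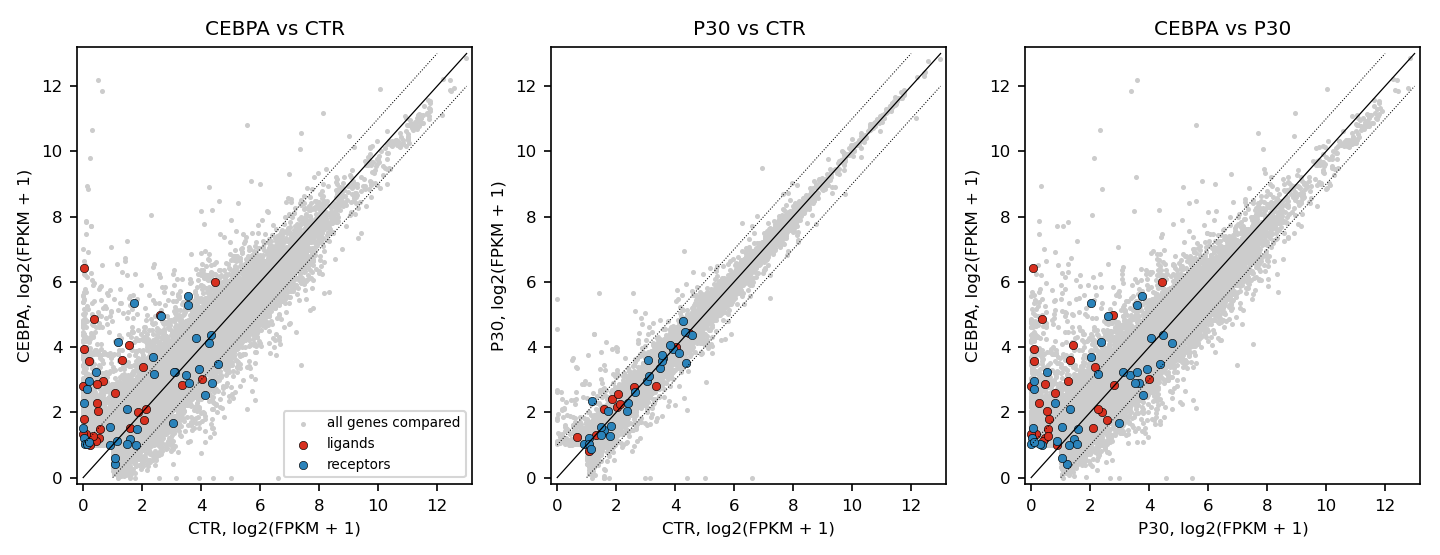
Each panel plots log2(FPKM + 1) of 1 group against another for all genes above 1 FPKM in either group of the pair (grey), with ligands in red and receptors in blue, the solid line for equal values and the dotted lines for a 2-fold difference. Ligands gather above the upper dotted line at the left edge of the panels with CEBPA, where 18 of 29 were at least 2-fold higher than in CTR, while in the middle panel 1 of 41 members, the receptor IL4R, lies past a dotted line.

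Of the CXC chemokines, 6 of 7 were at least 2-fold higher in CEBPA than in CTR, beside 14.0% of all genes, and CXCL10 had the highest ligand level in CEBPA. Of the higher ones, CXCL10, IL8 and CXCL1 passed the filter through CEBPA alone, and 63.2% of all such genes were at least 2-fold higher. CXCL10, which attracts activated T cells and NK cells, was at 0.0280 FPKM in CTR, 0.0541 FPKM in P30 and 84.4 FPKM in CEBPA, a change of 6.38 between CEBPA and CTR that ranked 16 among 13673 genes. IL8, the main neutrophil attractant, was at 0.298, 0.279 and 27.8 FPKM in the same order, a change of 4.47 with rank 81. CTR and P30 were alike in being under 1 FPKM for both genes. CXCL1, a further neutrophil attractant, was at 0.149 FPKM in CTR, 0.0568 FPKM in P30 and 10.8 FPKM in CEBPA (change 3.36). CXCL3, its close paralog, was at 1.95, 1.65 and 15.8 FPKM (change 2.51), and CXCL2 at 1.10, 0.756 and 4.97 FPKM (change 1.51). The 3 genes share much of their sequence, so that the split of their reads is uncertain, and all 3 were highest in CEBPA. CXCL11, which acts on the same receptor as CXCL10, was present in all groups, at 3.12, 3.48 and 9.55 FPKM (change 1.36). CXCL16, a membrane-bound chemokine of macrophages, was at 0.473, 0.490 and 1.80 FPKM and stayed below 2-fold (change 0.93). Summed over the 7 CXC chemokines, the level was 7.13 FPKM in CTR, 6.77 FPKM in P30 and 155 FPKM in CEBPA. The receptors CXCR1, CXCR2 and CXCR3 of these chemokines were not analysed here.

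IL8, CXCL1, CXCL3 and CXCL2 lie together within 358678 bp at chr4:74606236-74964913 (GRCh37, the build of the files, with Gencode genes), and CXCL10 and CXCL11 follow on the same chromosome at chr4:76942271-76944650 and chr4:76954835-76962568, both on the minus strand. To show the sequence that these genes have upstream, stretches before the RefSeq start of 5 CXC chemokines and of IL6 are printed, taken from RefSeq promoters (GRCh38.p14) and placed on GRCh37 by an exact match. Each runs 5′ to 3′ on the strand of its gene, and capitals mark matches to 3 motifs searched on both strands: C/EBP (TTGCNNAA), NF-kB (GGNNTTNCC, whose matches on the 2 strands can overlap) and ISRE, the interferon-stimulated response element (GAAANNGAA). The CXCL10 stretch is chr4:76944651-76944900 on the minus strand, with the ISRE match first and then 2 NF-kB matches. That of IL8 is chr4:74606136-74606235 on the plus strand, which ends just before the gene's first base in Gencode. The stretch of IL6 is chr7:22766619-22766765 on the plus strand, with a C/EBP match and then an NF-kB match. It lies before the RefSeq start but within the Gencode span of IL6, chr7:22765503-22771621. The stretches of CXCL1, CXCL2 and CXCL3 are chr4:74735010-74735109 on the plus strand, chr4:74964913-74965012 on the minus strand and chr4:74904407-74904506 on the minus strand, and Gencode places an exon of 1 CXCL3 transcript without a coding sequence over the last of these.
CXCL10: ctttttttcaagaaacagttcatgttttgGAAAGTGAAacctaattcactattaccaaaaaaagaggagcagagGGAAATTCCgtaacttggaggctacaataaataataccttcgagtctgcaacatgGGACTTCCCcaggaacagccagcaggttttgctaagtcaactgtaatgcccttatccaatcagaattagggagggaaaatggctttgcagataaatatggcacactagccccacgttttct
IL8: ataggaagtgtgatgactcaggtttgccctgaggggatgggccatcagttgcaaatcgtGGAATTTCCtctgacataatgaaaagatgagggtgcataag
IL6: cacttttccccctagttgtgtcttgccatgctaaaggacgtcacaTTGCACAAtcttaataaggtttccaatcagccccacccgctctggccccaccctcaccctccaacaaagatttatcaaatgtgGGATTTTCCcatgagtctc
CXCL1: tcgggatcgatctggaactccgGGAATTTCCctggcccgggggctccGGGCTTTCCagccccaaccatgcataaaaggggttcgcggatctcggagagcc
CXCL2: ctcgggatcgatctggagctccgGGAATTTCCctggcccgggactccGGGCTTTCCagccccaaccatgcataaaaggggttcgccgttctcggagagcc
CXCL3: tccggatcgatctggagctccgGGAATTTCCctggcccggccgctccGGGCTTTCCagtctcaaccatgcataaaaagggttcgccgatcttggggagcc

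The last 3 stretches are near copies. Aligned over 100 bases each, CXCL1 and CXCL2 had 95 identical bases, CXCL1 and CXCL3 had 90, and CXCL2 and CXCL3 had 90, and all 3 hold the same pair of NF-kB matches. Of the 7 CXC chemokines, 6 had a RefSeq promoter of 300 bases, 250 before the start to 50 after it. All 6 held the NF-kB letters, 3 held the ISRE letters and 1, CXCL2, held the C/EBP letters, at positions -188 to -181 from the start. Among all 27305 promoters of this length, 16.9% held the NF-kB letters, 8.29% the ISRE letters and 10.6% the C/EBP letters. A match says only that these letters occur in the window, and the lack of a match only that these exact letters do not. CXCL1, CXCL2 and CXCL3 are counted as separate promoters here and below, although their stretches are near copies.

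Over all members, 65 had a RefSeq promoter, and 22 of these (33.8%) held the NF-kB letters, 16 (24.6%) the ISRE letters and 13 (20.0%) the C/EBP letters. Of the 28 members with a promoter that were at least 2-fold higher in CEBPA than in CTR, 13 (46.4%) held the NF-kB letters, 8 (28.6%) the ISRE letters and 4 (14.3%) the C/EBP letters. Of the 25 that were over 1 FPKM in some group and not at least 2-fold higher, 3 (12%) held the NF-kB letters, 5 (20.0%) the ISRE letters and 6 (24.0%) the C/EBP letters. The share with NF-kB letters was the larger one among the members higher in CEBPA and the share with C/EBP letters among the others, and neither difference was tested. Besides the CXC chemokines, the higher members with NF-kB letters were CCL20, IL6, CXCR4, TNFRSF9, IL18R1, IL18RAP and IL4R, and those with C/EBP letters were IL6 (-155 to -148), IL1B (-215 to -208) and TNFSF13B (41 to 48). Among the members not at least 2-fold higher, IL23A, IL27RA and TNFRSF14 held NF-kB letters, and CCL26, CCR3, IL10RA, TNFRSF14, TNFSF14 and TNFSF4 held C/EBP letters. The NF-kB and ISRE letters were added to the search after the values had been seen.

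**Figure D2:**
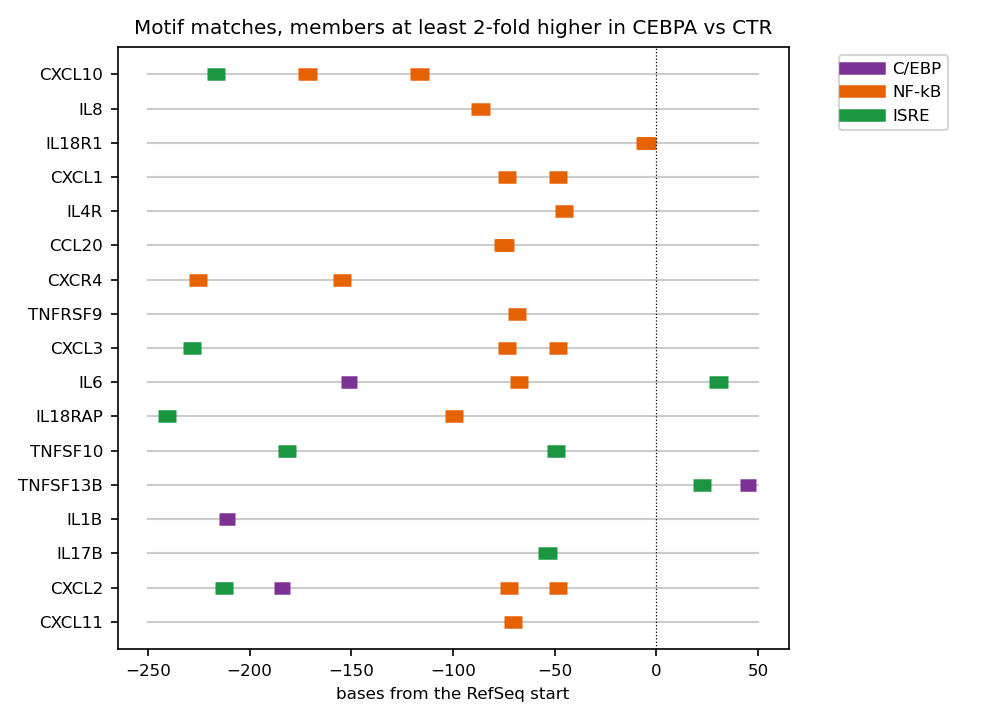
Matches to the C/EBP, NF-kB and ISRE letters are drawn by their distance in bases from the RefSeq start (dotted line) for the members at least 2-fold higher in CEBPA than in CTR that hold any match. NF-kB matches appear in 13 of the 28 members with a promoter, and C/EBP matches in 4.

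CC chemokines were a mixed group. CCL20, which attracts dendritic cells and Th17 cells through CCR6, was listed at 0 in CTR and in P30 and at 6.03 FPKM in CEBPA (change 2.81). CCL24, an eosinophil attractant, was at 1.47 FPKM in CTR, 1.47 FPKM in P30 and 11.2 FPKM in CEBPA, which is 7.62 times the CTR value. CCL5, a T cell and monocyte attractant, was at 0.169, 0.824 and 1.02 FPKM, with P30 close to CEBPA. CCL20 and CCL5 passed the filter between CEBPA and CTR through CEBPA alone. The remaining 2 over 1 FPKM were not higher in CEBPA. CCL26, which shares the receptor CCR3 with CCL24, was at 3.41, 3.77 and 3.32 FPKM, and CCL27, a skin chemokine and ligand of CCR10, at 9.18, 6.06 and 6.18 FPKM. CCL2 and CCL3L3 remained under 1 FPKM in every group, and CCL3L3 has near-identical copies with which it may share reads.

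In the IL-1 family, all 5 ligand-side genes were at least 2-fold higher in CEBPA than in CTR, beside 14.0% of all genes. Of these, IL1RN, IL1B and IL1A passed the filter through CEBPA alone, and 63.2% of all such genes were at least 2-fold higher. IL1RN, the secreted antagonist that blocks the IL-1 receptor, was at 0.0313 FPKM in CTR, 0.0802 FPKM in P30 and 14.3 FPKM in CEBPA (change 3.89, rank 134). The agonists reached lower levels, IL1B at 0.0296, 0.516 and 2.47 FPKM (change 1.75) and IL1A at 0.0667, 0.131 and 1.51 FPKM (change 1.24). The antagonist was thus the most abundant of the 3 IL-1 transcripts in CEBPA. IL18, a cytokine released by inflammasome activity that drives interferon gamma production, was high in every group, at 21.3, 20.4 and 63.1 FPKM (change 1.52, 2.97 times the CTR value). IL18BP, the soluble protein that binds and neutralizes IL18, was at 5.09, 5.85 and 30.8 FPKM (change 2.38). Summed over the 5 ligand-side genes the level was 26.5 FPKM in CTR, 27.0 FPKM in P30 and 112 FPKM in CEBPA.

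The receptor chains of the same family were also at least 2-fold higher in CEBPA, all 4 of them, beside 14.0% of all genes. IL1RAP passed the filter through CEBPA alone. IL18R1, the chain that binds IL18, was at 2.31 FPKM in CTR, 3.09 FPKM in P30 and 39.7 FPKM in CEBPA, a change of 3.62 or 17.2 times the CTR value, which ranked 164. IL18RAP, its signaling partner chain, was at 5.28, 5.14 and 30.3 FPKM (change 2.32). IL1R1, the IL-1 receptor, was at 4.18, 3.12 and 11.96 FPKM (change 1.32), and IL1RAP, the accessory chain it needs to signal, at 0.365, 0.455 and 8.49 FPKM (change 2.80). Ligand, binding protein and both receptor chains of IL18 were all highest in CEBPA, while their changes between P30 and CTR ranged from -0.05 (IL18) to 0.30 (IL18R1). These genes sit in a pair of clusters on chromosome 2: IL1R1, IL18R1 and IL18RAP within 388022 bp at chr2:102681004-103069025, and IL1A, IL1B and IL1RN within 360092 bp at chr2:113531502-113891593. All 6 genes of the 2 clusters were at least 2-fold higher in CEBPA than in CTR, and IL1A, IL1B and IL1RN passed the filter through CEBPA alone.

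Interleukins of other families were fewer and lower. IL6, the acute-phase cytokine, was at 0.394 FPKM in CTR, 0.371 FPKM in P30 and 6.24 FPKM in CEBPA (change 2.38). IL12B, the subunit shared by IL-12 and IL-23, was at 0.00511, 0 and 1.54 FPKM (change 1.34). IL23A, which pairs with IL12B to form IL-23, was present in all groups and highest in P30, at 2.59, 4.32 and 3.05 FPKM. IL17B was at 0.404, 0.455 and 3.13 FPKM (change 1.56) and IL17D at 0.337, 0.315 and 1.20 (change 0.72), both members of the IL-17 family. IL6, IL12B, IL17B and IL17D passed the filter through CEBPA alone, and 63.2% of all such genes were at least 2-fold higher. IL16, a cytokine that binds CD4, was at 2.02, 3.32 and 1.85 FPKM and so, like IL23A, highest in P30.

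TNF family ligands went in both directions. TNFSF10 (TRAIL), which triggers apoptosis through death receptors, was at 0.586 FPKM in CTR, 1.35 FPKM in P30 and 6.82 FPKM in CEBPA (change 2.30). TNFSF13B (BAFF), a B cell survival factor, was at 0.397, 0.190 and 3.86 FPKM (change 1.80). TNFSF14 (LIGHT), a ligand of TNFRSF14, was at 0.262, 0.475 and 1.39 FPKM and TNFSF4, the ligand of OX40, at 0.454, 0.398 and 1.34 FPKM, both short of 2-fold. TNFSF10, TNFSF13B, TNFSF14 and TNFSF4 passed the filter between CEBPA and CTR through CEBPA alone. Of all such genes, 63.2% were at least 2-fold higher. In the other direction, TNFSF9, a costimulatory ligand for T cells, was the only ligand at least 2-fold lower in CEBPA, at 15.3, 15.0 and 7.09 FPKM (change -1.01). TNFSF12 (TWEAK), the ligand of TNFRSF12A, was at 3.21, 4.89 and 2.40 FPKM. The sum over the 6 ligands was close between groups, at 20.2 FPKM in CTR, 22.3 FPKM in P30 and 22.9 FPKM in CEBPA, and TNFSF9 made up most of it in CTR and P30.

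**Figure D3:**
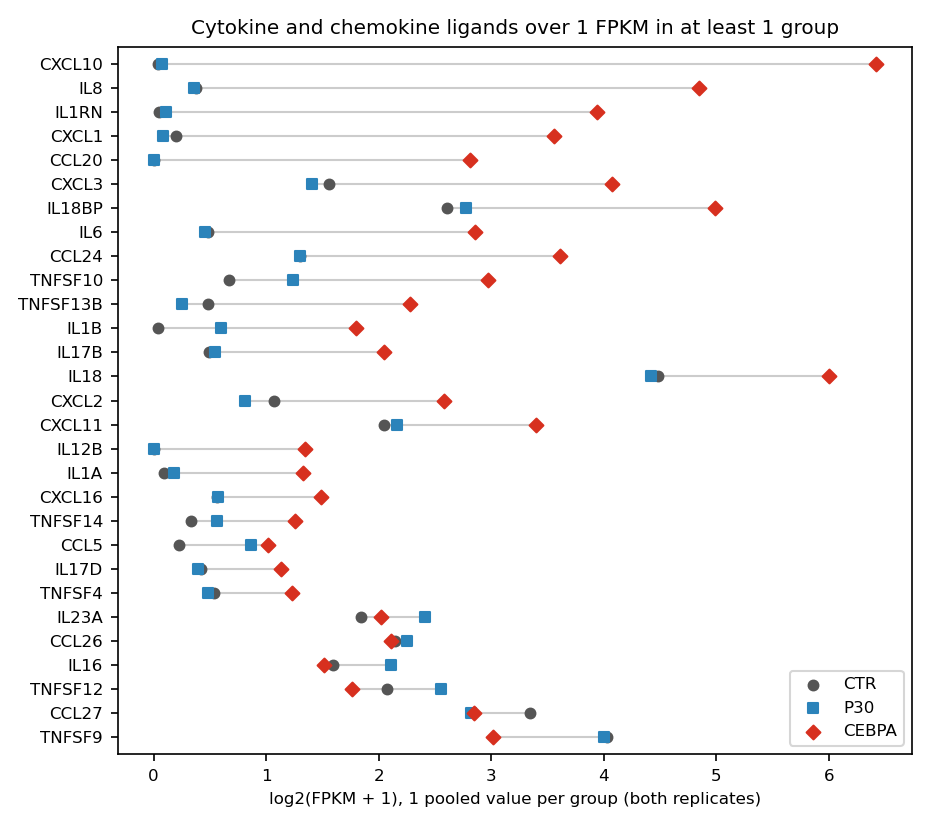
Pooled log2(FPKM + 1) of the 29 ligand-side genes over 1 FPKM in at least 1 group, ordered by the change between CEBPA and CTR, with CTR as circles, P30 as squares and CEBPA as diamonds. CTR and P30 lie close together in most lines, CEBPA stands to the right from CXCL10 (84.4 FPKM) down to TNFSF4, and TNFSF9 at the bottom is lower in CEBPA.

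Among TNF receptors, most were expressed in every group. TNFRSF10B, a TRAIL death receptor, was the one with a high level and a large change, at 10.9 FPKM in CTR, 10.9 FPKM in P30 and 38.4 FPKM in CEBPA (change 1.73). The related death receptor TNFRSF10A was at 7.47, 11.1 and 8.43 FPKM and the decoy receptor TNFRSF10C at 1.21, 0.843 and 1.19 FPKM, so that of these 3 neighbours on chromosome 8 only TNFRSF10B was at least 2-fold higher. They are related in sequence, and reads that fit more than 1 of them may have been split. TNFRSF9, the T cell costimulatory receptor CD137 and partner of TNFSF9, was at 0.0969, 0.0600 and 5.63 FPKM (change 2.60), opposite in direction to its ligand. TNFRSF19 was at 0.0222, 0.0304 and 1.33 FPKM (change 1.19). TNFRSF17 (BCMA), a plasma cell receptor, was at 0.0382, 0 and 1.03 FPKM and TNFRSF11A (RANK), the receptor of osteoclast formation, at 0.0989, 0.221 and 1.02 FPKM. These last 3 genes were just over the filter in CEBPA and under it elsewhere. TNFRSF21, a death receptor, was at 1.77, 1.46 and 3.30 FPKM (change 0.63).

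Several TNF receptors were lower in CEBPA. TNFRSF1B, the TNF receptor of leukocytes, was at 23.03 FPKM in CTR, 19.5 FPKM in P30 and 10.3 FPKM in CEBPA (change -1.09). TNFRSF1A, the widely expressed TNF receptor, was at 18.2, 26.7 and 16.5 FPKM. CEBPA was the lowest group for both genes, and P30 the highest for TNFRSF1A. TNFRSF12A, the TWEAK receptor, was at 10.9, 11.7 and 6.40 FPKM (change -0.69). TNFRSF8 (CD30), a lymphoma marker, was at 2.44, 1.42 and 1.02 FPKM (change -0.77), and TNFRSF13C, the BAFF receptor of B cells, at 1.13, 1.34 and 0.346 (change -0.66). TNFRSF14, the receptor of LIGHT, was at 2.00, 1.72 and 1.29 FPKM. Of all 14 TNF receptors, 3 were at least 2-fold higher in CEBPA than in CTR and 1 was lower, beside 14.0% and 6.92% of all genes, and 2 of the 3, TNFRSF9 and TNFRSF19, passed the filter through CEBPA alone.

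Chemokine receptors were led by CCR6 and CCR10, which hardly differed. CCR6, the receptor of CCL20, was at 18.99 FPKM in CTR, 20.9 FPKM in P30 and 19.6 FPKM in CEBPA, and CCR10, the receptor of CCL27, at 7.69, 7.70 and 8.41. CXCR4, which holds hematopoietic cells in the bone marrow by binding CXCL12, was at 0.139, 0.0591 and 6.72 FPKM (change 2.76). CCR1, a receptor of neutrophils and monocytes, was listed at 0 in CTR, at 0.0396 in P30 and at 1.85 FPKM in CEBPA (change 1.51). These 2 were the only chemokine receptors at least 2-fold higher in CEBPA than in CTR, beside 14.0% of all genes. Both passed the filter through CEBPA alone, and 63.2% of all such genes were at least 2-fold higher. CCR3, the eotaxin receptor of eosinophils, was at 0.155, 0.0808 and 1.11 FPKM (change 0.87). CCR7, which guides cells into lymph nodes, was at 0.892, 0.293 and 1.00 FPKM and lowest in P30.

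IL4R, the chain that binds IL-4, was lowest in CTR and intermediate in P30, at 1.26 FPKM in CTR, 4.10 FPKM in P30 and 16.9 FPKM in CEBPA. It was at 13.4 times the CTR value in CEBPA (change 2.98, rank 243) and 3.25 times in P30. IL13RA1, which pairs with IL4R to form a receptor for both IL-4 and IL-13, was at 10.9, 12.5 and 46.8 FPKM (change 2.01) and was the most abundant receptor transcript in CEBPA. The other partner of IL4R went the opposite way. IL2RG, the common gamma chain, was at 19.5, 10.5 and 6.41 FPKM (change -1.47). IL5RA, the IL-5 receptor chain of eosinophils and basophils, was at 0.0226, 0.747 and 3.83 FPKM (change 2.24), and like IL4R it had P30 between the other groups. IL5RA passed the filter through CEBPA alone. IL15RA, which presents IL-15, was at 2.56, 1.99 and 1.84 FPKM.

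The remaining receptors were mostly level or lower. IL17RC, a chain of the IL-17 receptor, was at 16.4 FPKM in CTR, 12.98 FPKM in P30 and 4.84 FPKM in CEBPA, and its change of -1.58 was the most negative of all members. Its partner IL17RA was higher, at 4.23, 3.86 and 7.94 FPKM (change 0.77). IL17RB, the receptor of IL17B and IL-25, was at 1.80, 1.94 and 1.02 FPKM and IL17RE, the receptor of IL17C, at 1.12, 1.05 and 0.511. The IL-17 receptor chains thus went in both directions. IL10RA, the IL-10 binding chain, was at 7.21, 6.86 and 2.17 FPKM (change -1.37). IL20RB, a chain of the IL-20 receptors, was at 13.1, 15.9 and 18.3 FPKM. Receptors of the IL-12 group stayed within 2-fold, with IL27RA at 14.2, 14.4 and 9.05 FPKM, IL23R at 10.2, 9.29 and 7.82 and IL12RB2 at 0.862, 1.06 and 1.91.

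**Figure D4:**
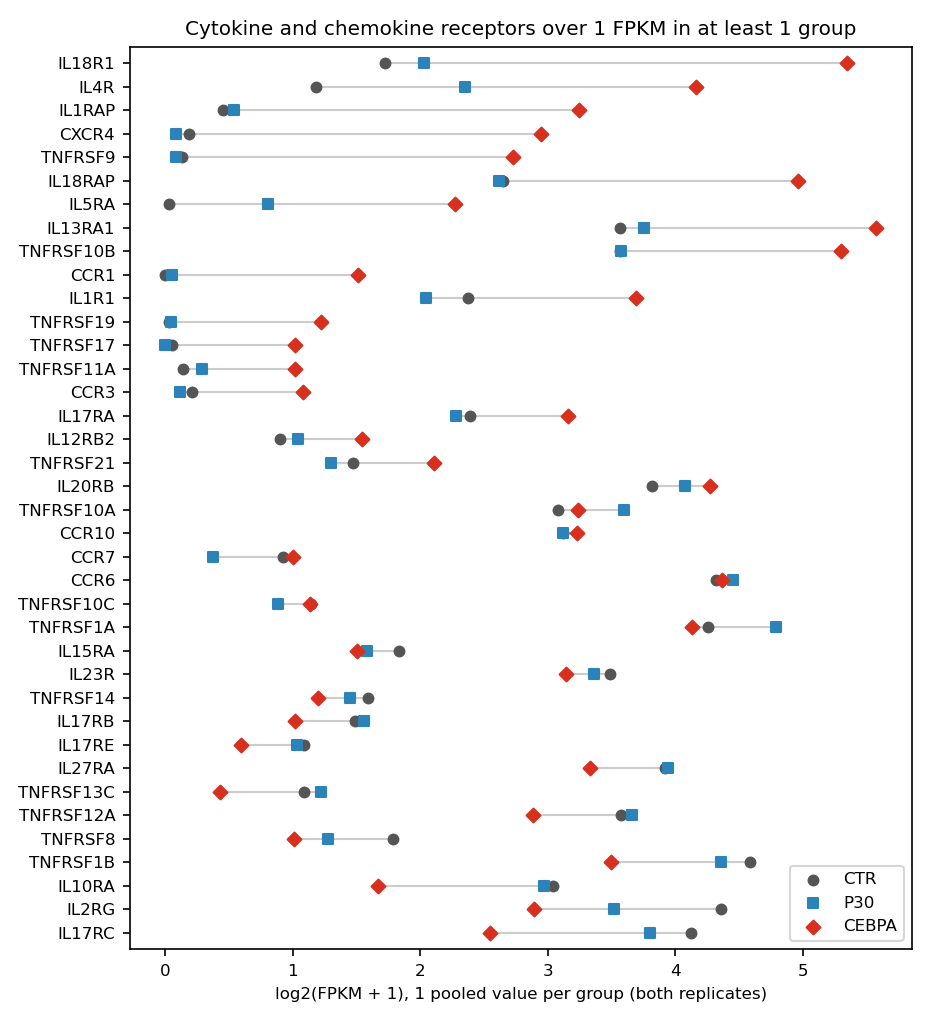
Pooled log2(FPKM + 1) of the 38 receptor genes over 1 FPKM in at least 1 group, ordered by the change between CEBPA and CTR, with CTR as circles, P30 as squares and CEBPA as diamonds. The upper lines from IL18R1 to IL1R1 have CEBPA far to the right, CCR6 and CCR10 have the 3 groups together, and the lower lines from TNFRSF1B to IL17RC have CEBPA to the left, with P30 between CTR and CEBPA for IL4R and IL2RG.

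The other 19 members, 12 ligands and 7 receptors, did not exceed 0.841 FPKM in any group. Of these, 15 were highest in CEBPA, 3 in CTR and 1 in P30. A like tilt was seen in all symbols at such levels, of which 2036 of 3330 (61.1%) were highest in CEBPA, with a median of 0.254 FPKM in CTR, 0.218 FPKM in P30 and 0.418 FPKM in CEBPA. No member was listed at 0 in CEBPA, against 8 in CTR and 9 in P30, and the same count was not made over all symbols. All 86 members had a row for CEBPA and CTR, while 26 had none for P30 and CTR. A gene near 0 in CTR and P30 may thus be listed only through its CEBPA value. These counts at 0 are therefore not a result about the members.

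Between P30 and CTR the cytokine and receptor genes over 1 FPKM in either group hardly differed. Of 41 members compared, 1 (2.44%) was at least 2-fold higher in P30, against 1.02% of all 12395 genes, and 0 were at least 2-fold lower, against 0.613%. The one gene was IL4R, with a change of 1.17 that ranked 89. The median change was 0.11 for 13 ligands and -0.02 for 28 receptors, beside 0.02 for all genes, and the scaled median absolute deviation over all genes was 0.20, which holds noise and any effect of p30 together. The largest negative change was that of IL2RG (-0.84, rank 129 from the bottom). CCL27 (-0.53) and TNFRSF8 (-0.51) were lower as well, and TNFSF10 (0.57), IL23A (0.57), TNFRSF1A (0.53), IL16 (0.52), TNFRSF10A (0.51) and TNFSF12 (0.48) were higher. Under 1 FPKM in both groups, IL5RA (0.77), CCL5 (0.64), IL4 (0.58) and IL1B (0.56) were higher in P30 than in CTR, and CCR7 (-0.55), CCL2 (-0.43) and IL2RB (-0.42) were lower. Among the 41, none of the chemokines and IL-1 receptor chains that stood out in CEBPA reached a 2-fold change, with IL18R1 at 0.30. CXCL10, IL8 and CXCL1 were not among the 41. They were under 1 FPKM in both groups, where a change of 1 cannot be reached with the pseudocount of 1. Their differences were 0.04, -0.02 and -0.12, and their P30 values were 1.93, 0.935 and 0.381 times the CTR values.

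Between CEBPA and P30, 31 of 67 members (46.3%) were at least 2-fold higher in CEBPA, against 13.1% of 13569 genes, and 2 (2.99%) were lower, against 5.79%. This comparison shares the CEBPA samples with that of CEBPA and CTR, and each of those shares a group with the comparison of P30 and CTR, so that the 3 sets of values are not independent. The median change was 1.34 for ligands and 0.38 for receptors, beside -0.04 for all genes. Here too many members passed the filter through CEBPA alone: of the 28 at or below 1 FPKM in P30, 19 (67.9%) were higher, beside 60.7% of all 1517 such genes. Of the 39 members over 1 FPKM in P30, 12 (30.8%) were higher, against 7.13% of 12052 genes, and 2 (5.13%) lower, against 6.51%. The median was then 0.63 for ligands and -0.22 for receptors, beside -0.12 for all genes, so that the receptor median changed sign with the filter, as it did with symbols listed in all 3 tables (-0.078). CXCL10 (6.34, rank 13), IL8 (4.49, rank 70), IL1RN (3.83) and CXCL1 (3.48) had the largest changes. IL4R differed by 1.81 and IL5RA by 1.47, values below those against CTR. The 2 lower genes were IL10RA (-1.31) and IL17RC (-1.26). IL2RG, TNFRSF1B and TNFSF9, which were 2-fold lower against CTR, differed by -0.63, -0.86 and -0.98 against P30.

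**Figure D5:**
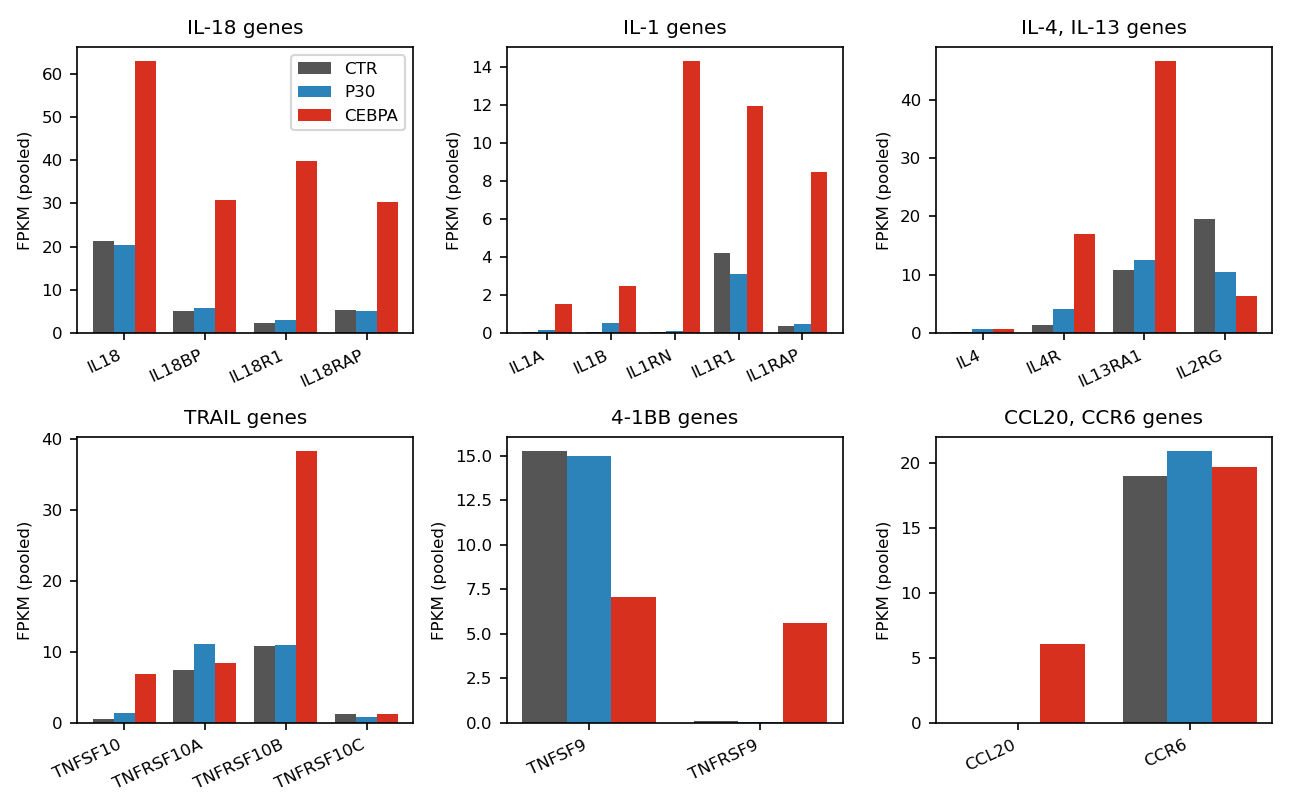
Bars give the pooled FPKM of ligands and receptors that act together in CTR (grey), P30 (blue) and CEBPA (red), each panel with its own axis from 0 and no error bars, since the replicates are pooled. All 4 IL-18 genes are highest in CEBPA, IL4R is at 1.26, 4.10 and 16.9 FPKM and IL2RG at 19.5, 10.5 and 6.41 in CTR, P30 and CEBPA, and TNFSF9 and its receptor TNFRSF9 go in opposite directions.

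Between CEBPA and CTR, genes that carry signals inside the cell were called 2-fold at shares near those of all genes under the level filter. Of 59 signaling genes over 1 FPKM (JAK and STAT genes, SOCS genes, adaptors, NF-kB genes and genes of chemokine receptor signaling), 9 (15.3%) were at least 2-fold higher in CEBPA than in CTR and 5 (8.47%) lower, beside the 14.0% and 6.92% of all genes. Of the 57 over 1 FPKM in CTR, 7 (12.3%) were higher, against 7.83% of all such genes, and 5 (8.77%) lower, against 7.79%. The 9 higher ones were led by RGS2, which shortens G protein signals, at 3.50, 1.68 and 30.7 FPKM (change 2.82). TNFAIP3, an inhibitor of NF-kB, was at 2.05, 1.90 and 18.7 FPKM (change 2.69) and RELB, an NF-kB subunit, at 0.437, 0.648 and 6.78 (change 2.44). Lower were CISH, a STAT5-induced inhibitor, at 35.9, 34.2 and 9.55 FPKM (change -1.81), SOCS1, an inhibitor of JAK kinases, at 7.47, 7.07 and 1.58 (change -1.71), and ARRB1, which desensitizes chemokine receptors, at 20.7, 18.8 and 5.91 (change -1.65). By group, 3 of 14 NF-kB genes were higher and 0 lower, 1 of 9 JAK and STAT genes was higher, 1 of 8 SOCS genes was higher and 2 lower, 3 of 19 receptor adaptors were higher and 1 lower, and 1 of 9 genes of chemokine receptor signaling was higher and 2 lower.

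In P30 against CTR, 1 of 57 signaling genes (1.75%) was at least 2-fold higher and 0 lower, beside 1.02% and 0.613% of all genes. The higher gene was PIK3CG, the phosphoinositide kinase activated by chemokine receptors, at 6.95 FPKM in CTR, 15.5 FPKM in P30 and 12.8 FPKM in CEBPA (change 1.06). CASP8, the caspase of death receptors, differed by 0.51 and NFKB1, an NF-kB subunit, by 0.42. RGS2 (-0.75), SOCS3 (-0.74), a feedback inhibitor of IL-6 signaling, and IRAK2 (-0.44), a kinase of IL-1 signaling, had the most negative changes. In CEBPA against P30, 9 of 59 signaling genes (15.3%) were higher and 6 (10.2%) lower, beside 13.1% and 5.79% of all genes, with RGS2 (3.57), TNFAIP3 (2.76) and RELB (2.24) at the top and CISH (-1.74), SOCS1 (-1.64) and ARRB1 (-1.52) at the bottom. Of the 57 over 1 FPKM in P30, 7 (12.3%) were higher and 6 (10.5%) lower, beside 7.13% and 6.51% of all such genes.

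The name pattern leaves out cytokines and receptors with other names. Of a list of 42 such symbols, 21 had a value and 15 were over 1 FPKM in CEBPA or CTR, of which 4 (26.7%) were at least 2-fold higher in CEBPA and 1 (6.67%) lower, beside 14.0% and 6.92% of all genes. Of the 12 over 1 FPKM in CTR, 2 (16.7%) were higher and 1 (8.33%) lower, against 7.83% and 7.79% of all such genes. Of the 3 that passed the filter through CEBPA alone, 2 were higher, beside 63.2% of all such genes. Among the 15, PPBP, a CXC chemokine stored in platelets, was at 0.0705 FPKM in CTR, 0.0223 FPKM in P30 and 51.1 FPKM in CEBPA (change 5.60). TSLP, which acts through a receptor related to that of IL-7, was at 1.09, 0.733 and 17.3 FPKM (change 3.14). CCRL2, an atypical chemokine receptor, was the lower one, at 6.23, 6.34 and 2.42 FPKM (change -1.08). These 3 genes were named after their values were seen.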

How the data were processed

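RNA was taken from 6 samples of K562 cells, 2 replicates each of CTR, CEBPA and P30, after 48 h of doxycycline. Per the study's methods, the authors prepared stranded TruSeq libraries, sequenced them in separate runs on different instruments, used TopHat for alignment to hg19, Cufflinks with Gencode for assembly and Cuffdiff for gene levels. The submitters' processing notes name CASAVA 1.4 and TopHat2 2.0. The authors deposited 1 FPKM per gene and group, with replicates pooled, in 3 tables of 16938 (CEBPA and CTR), 14956 (P30 and CTR) and 16843 (CEBPA and P30) rows. How Cuffdiff scaled the libraries, and by which rule rows were kept, is not given in the sources used here. Depth per sample cannot be read from these values, and whether the replicates came from separate cultures is not given beyond their being called biological.

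Groups were compared by the difference of log2(FPKM + 1), a pseudocount of 1, in genes above 1 FPKM in either group of a pair, and differences were called at 2-fold. No test was run. The scaled median absolute deviation is the deviation times 1.4826. Every member over 1 FPKM in some group is named, and of the signaling list the 3 largest changes in each direction of each comparison and each gene with a 2-fold change between P30 and CTR. The members and lists were chosen with earlier results of these data known. A member whose symbol had no row in the P30 and CTR table (26, none above 0.221 FPKM in those groups) or in the CEBPA and P30 table (3) took its values from the other tables. Alternatives were another pseudocount, centring on the median of all genes compared, summing rows of the same symbol, other filters and another fold. Others were symbols listed in all 3 tables and, chosen after seeing the data, a filter on the reference group.

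Symbols were placed on GRCh37 with Gencode v44lift37, which is later than the authors' release, and older symbols were matched through RefSeq synonyms (IL8 is CXCL8 there). All 86 members were placed, and 65 had a RefSeq promoter. The computations were tested on simulated data. Software was numpy 2.4.6, pandas 2.3.3, matplotlib 3.10.9 and, for aligning promoters, Biopython 1.88, all under Python 3.11.15.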

Additional observations from a re-analysis of the deposited data

How the results depend on the processing

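With 1 pooled value per group, no replicate could be left out, and the values do not show the depth behind them. No paired analysis was possible because the columns pool the replicates and carry no replicate numbers. An alternative was counted as moved where a median differed by more than 0.20 on the log2 scale or a count by more than 1.5 times, and the cause was not tested. Of 138 alternatives of 18 summary values, 110 stayed within these limits, 25 moved and 3 changed sign. A change of sign was counted only where the main median lay beyond 0.20 or the main change of a gene reached 1. Values nearer 0 could change sign and still count as within the limits. With a filter of 5 FPKM, for instance, the ligand median for P30 against CTR went from 0.11 to -0.04. The single-gene alternatives were a pseudocount of 0.1, centring on the median of all genes compared and summing rows of the same symbol. No member had repeated rows, and centring shifted a comparison by less than 0.20, so that neither could move a value. Of 564 alternatives of 188 single-gene values, 472 stayed within the limits and 92 moved, all with a pseudocount of 0.1. That pseudocount thus moved 92 of the 188. No change that reached 1 changed sign, while some near 0 did under centring.

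With a pseudocount of 0.1, the ligand median was 2.57 for CEBPA against CTR and 2.25 for CEBPA against P30, the receptor median 0.63 for CEBPA against P30, members lower in CEBPA than in P30 numbered 4, and 2 members were higher and 1 signaling gene lower in P30 than in CTR. With no filter, the ligand median was 0.83 against CTR and 0.82 against P30. With a filter of 5 FPKM it was 2.38 and 2.35, the receptor median for CEBPA against P30 was 0.15, and 0 members were higher in P30 than in CTR, since IL4R no longer passed. With symbols listed in all 3 tables, the receptor median was 0.045 against CTR and -0.078 against P30, a change of sign, and 20 members were higher in CEBPA than in P30. With calls at 1.5-fold, 9 members were lower in CEBPA than in CTR and 11 than in P30, and 1 was lower in P30 than in CTR. Signaling genes then numbered 14 higher and 12 lower in CEBPA than in CTR, 14 lower in CEBPA than in P30 and 2 lower in P30 than in CTR. With genes over 1 FPKM in the reference group, a filter chosen after seeing the data, 12 members were higher in CEBPA than in CTR and 12 than in P30, the ligand medians were 0.77 and 0.63, and the receptor medians changed sign to -0.13 and -0.22.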
